A study of Saccharomyces cerevisiae with 14 samples.

Results

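The ASP3 cluster is a stretch of chromosome XII that lies against the right end of the ribosomal DNA (rDNA) in the yeast reference genome and holds 4 copies of ASP3, which encodes the cell-wall form of L-asparaginase. Its signal was read on tiling arrays from all probes that lie from 451118 to 489863 on chromosome XII in build sacCer2, a stretch that takes in the reference rDNA repeats as well. This gave 53 of the 59156 nuclear probes, of which 23 lie in the rDNA block (451118 to 467825) and 30 in the ASP3 block (469004 to 489863). The flanks of 20 kb on the left and on the right, with 107 and 111 probes, served for comparison.

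The samples were 13 TAQed strains and WT14, from which they were derived. The strains numbered 1, 73, 76, 81 and 83 shared slide 1 with WT14, and those numbered 84, 97, 101, 106, 107 and 113 shared slide 2 with 117 and 119. WT14 is a diploid made by cell fusion of S799, of SK1 background, and YPH499, of S288C background, and carries MATa on both homologs. The TAQed strains are isolates of this diploid in which the restriction enzyme TaqI had been expressed from a copper-inducible promoter and activated by heat at 42 °C for 30 min, and they had been picked for small colonies and altered cell morphology. WT14 was the control without TaqI activation according to the study's methods, although the sample labels repeat the treatment text for it. In array comparative genomic hybridization (aCGH), a pair of DNAs, in Cy5 and in Cy3, competes for each probe. Here each strain was in Cy5 and WT14 was in Cy3 on all 14 arrays, 1 array also had WT14 in Cy5, and there was no dye swap. Each strain had 1 array, so no value of a strain has a replicate of its own, while the Cy3 signals give 14 measurements of WT14 DNA.

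Budding yeast carries its 35S and 5S ribosomal RNA genes in a long tandem array on chromosome XII, and the reference writes out only a few of these repeats. The number of repeats differs between strains and changes by recombination within the array. The ASP3 genes sit in a repeated unit beside that array, each together with a 5S gene. Asparaginase II is secreted to the cell wall in cells starved for nitrogen, where it releases ammonia from asparagine, and yeast strains differ in whether they carry the cluster at all.

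In the R64 annotation of the reference, 40 genes follow each other from RDN37-1 to YLR162W. The left part holds the pair of 35S units with their RDN25, RDN58 and RDN18 genes, the 5S genes RDN5-1 and RDN5-2, and TAR1, a small protein gene antisense to the 25S gene. Then come ASP3-1 with YLR156W and RDN5-3, ASP3-2 with YLR157W-D, the Ty1 open reading frames YLR157C-B and YLR157C-A, YLR157W-E and RDN5-4, ASP3-3 with YLR159W and RDN5-5, and ASP3-4 with YLR161W, RDN5-6 and YLR162W. RRT15 is the next gene on the right. All 4 ASP3 genes have the same length of 1089 bases, and R64 is not the build of the array, so no probe was assigned to a single copy or gene.

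Strain 81 had a dim array. On the remaining arrays, the median raw signal of all spots was 157 to 284.5 in Cy5 and 127 to 201 in Cy3, over a local background of 11 to 13. On the array of strain 81 it was 25 and 24 over a background of 10. At least 99.85% of the nuclear probes were well above background in each dye on the other arrays, against 84.6% in Cy5 and 81.0% in Cy3 on that of strain 81. A signal is called well above background here where the scanner software flagged it so.

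The question asked of the ASP3 block was whether TaqI treatment had changed its copy number, and the first result is that most of its probes gave no signal to measure. Of its 30 probes, 22 were not well above background in either dye on any of the 14 arrays, and such probes are called unlit here. Over all nuclear probes this held for 46, or 0.0778%, so the ASP3 block contains 47.8% of them. None of them lay in the rDNA block and none among the 218 probes of the flanks. The other 24 comprised 19 on chromosome IV, 17 of these within 1156315 to 1159559, and 5 scattered probes on other chromosomes. The longest unbroken runs in the ASP3 block were 12 probes from 481877 to 488773 and 4 probes from 469004 to 472205. The 22 probes stand at 17 positions, since 4 probes share the position 486211 to 486270 and 3 probes are annotated with the same span from 475963 to 481951.

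The signals of these 22 probes were alike in the TAQed strains and in WT14. Without the array of strain 81, their median background-subtracted signal was 0.20 to 0.85 units in Cy5 over the 12 TAQed arrays and the WT14 array and 0.06 to 0.51 units in Cy3. No single value exceeded 3.82 units in Cy5 or 2.67 in Cy3. The flank probes on the same arrays had medians of 142.2 to 264.2 units in Cy5 and 83.6 to 140.9 in Cy3, and none was below 18 and 11.6. The blank control spots of the array had medians within 0.04 of 0 on all arrays, and their 99th percentile was 0.88 to 1.80 in Cy5 and 0.87 to 1.58 in Cy3. Between 0 and 9 of the 22 probes exceeded that percentile in Cy5 on a given array, and between 0 and 6 in Cy3.

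A weak signal above the blanks was found at few of these positions. The probe at 469004, the leftmost of the ASP3 block, exceeded the 99th percentile of the blanks on 11 arrays in Cy5 and on 11 in Cy3, with a median of 1.99 units in Cy5. The 3 probes annotated from 475963 to 481951 did so on 9 to 13 arrays in Cy5 and 8 to 10 in Cy3, and the probe at 481877 on 7 and 10. The remaining 17 exceeded it on no more than 2 arrays in either dye. YPH499, a parent of WT14, derives from S288C, the strain of the yeast reference genome. Whether WT14 carries the cluster was not tested. What these probes give with DNA known to carry it was not tested either. Their lack of signal is thus a measurement of these 14 arrays and not a count of ASP3 copies.

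**Figure D1:**
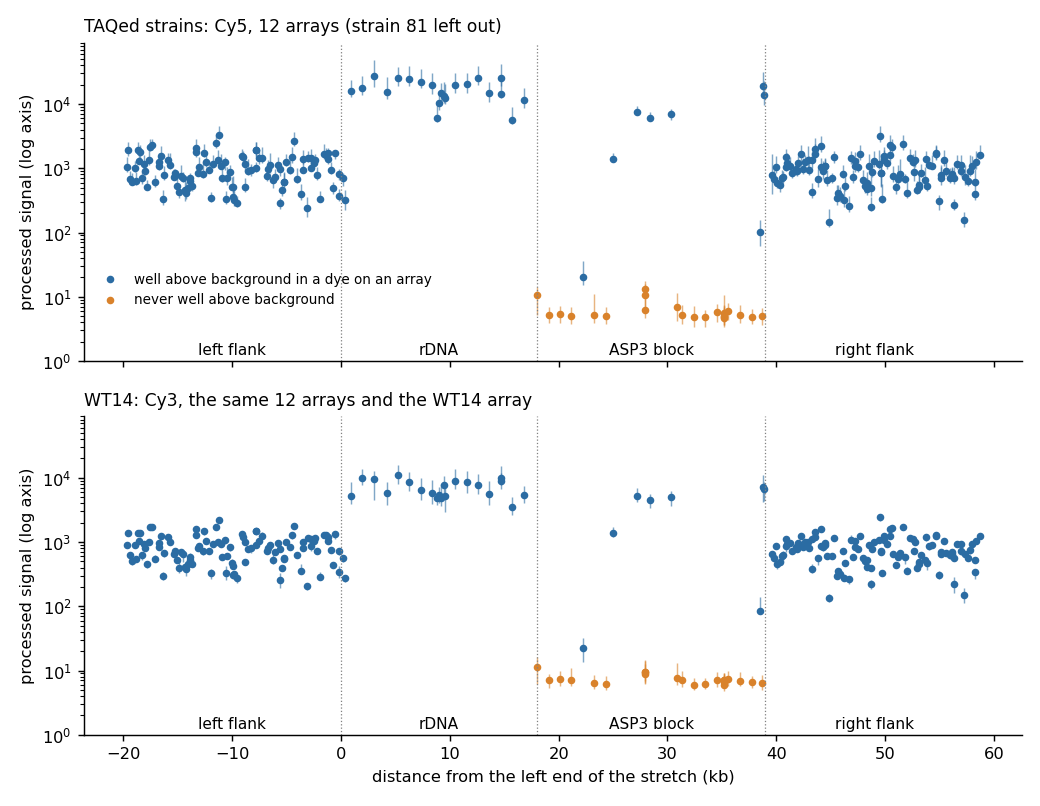
Processed signal (log axis) of each probe against its distance in kb from the left end of the stretch, for the TAQed strains in Cy5 on 12 arrays (top, strain 81 left out) and WT14 in Cy3 on these and the WT14 array (bottom). Points are medians and lines the range over arrays, and the 22 probes that were never well above background, in orange, sit at the bottom of the ASP3 block in both panels.

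The log2 ratio of Cy5 over Cy3, centered on the median of each array, had a negative median over these probes on every array, although 30 of their 286 single values on the TAQed arrays and 4 of 22 on the WT14 array were above 0. Over the 22 probes the array medians were -0.58 in strain 1, -0.24 in 73, -0.43 in 76, -0.24 in 81, -0.43 in 83, -0.47 in 84, -0.40 in 97, -0.39 in 101, -0.28 in 106, -0.28 in 107, -0.15 in 113, -0.47 in 117 and -0.31 in 119, against -0.48 for WT14 against itself. In the last of these the same DNA is in both dyes. Only strain 1 was below WT14 and the other 12 strains lay between it and 0. The processed signals at these spots were small, 3.9 to 7.3 units at the median in Cy5 and 5.6 to 9.4 in Cy3 without strain 81. The scanner software found 11 to 22 of the 22 probes significant in neither dye on a given array. Some processed values were positive where the background-subtracted signal was below 0. At 475308 in strain 76 they were 5.1 and -0.67 in Cy5. Such processed values, and the ratios from them, are not readings of DNA. How many values the software had replaced was not tested. The deposited log ratio was set to 0 at 16 to 22 of the 22 probes on each array.

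The 17 unlit probes of chromosome IV gave the same kind of value. Their array medians were -0.63 to -0.23 and differed from those of the ASP3 probes by 0.03 at the median and by at most 0.08. Over the 14 arrays both sets of medians had a Pearson r of 0.96, given as a description, since both come from the same arrays and the same scaling. In the plot of probes never well above background, the sets run side by side through the arrays.

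**Figure D2:**
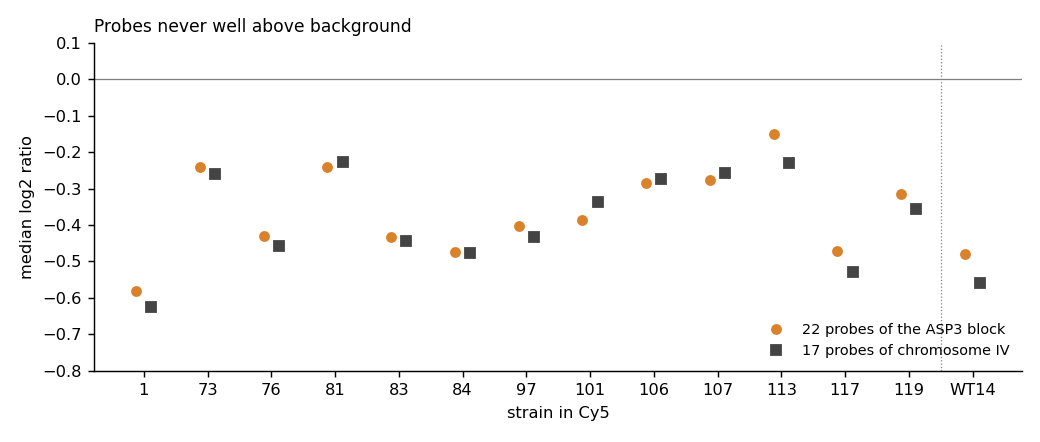
Median log2 ratio (Cy5 over Cy3) per array of the 22 probes of the ASP3 block (circles) and the 17 probes of chromosome IV (squares) that were never well above background, for the 13 TAQed strains and WT14. On every array both medians are below 0 and within 0.08 of each other, and WT14 against itself is at -0.48 and -0.56.

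By a fold threshold, many values of the ASP3 block were called lower, in WT14 as in the strains. With a log2 ratio below -0.3 called lower, 174 of the 390 probe values of the block on the 13 TAQed arrays were called (44.6%), against 6.48% of all nuclear probe values on these arrays. Above 0.3 there were 85 (21.8%), against 7.34% of all values. On the WT14 array 17 of the 30 probes were called lower, against 0.518% of all probes there. Of the 390 TAQed values, 296 were well above background in neither dye. Among the values well above background in at least 1 dye, 1 of the TAQed values was below -0.3 and 64 were above 0.3. The value below -0.3 was that of the probe at 489451 in strain 101, at -0.34, where WT14 was at -0.26. On the WT14 array 6 of the 30 probes were above 0.3, against 2.72% of all probes there. The bright probes at 478130, 479367, 481266, 489761 and 489804 were among them, at 0.54, 0.67, 0.56, 1.11 and 0.91. The counts of values well above background were not set beside those of all nuclear probes, and they do not separate the strains from WT14.

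The remaining 8 probes of the ASP3 block had signal, and they fell into different groups. The probe at 473214 was the faintest, with a Cy5 signal well above background in strains 1, 73, 76 and 83 and on the WT14 array and a Cy3 signal on no array. Its processed Cy5 signal without strain 81 was 15.0 to 35.6 units. The probe at 475950 was well above background in both dyes on all arrays, and its ratio stayed near 0. Its log2 ratios were 0.00 in strain 1, 0.01 in 73, 0.08 in 76, -0.01 in 81, 0.22 in 83, 0.07 in 84, 0.01 in 97, 0.05 in 101, 0.07 in 106, -0.07 in 107, -0.05 in 113, -0.06 in 117 and 0.05 in 119, against 0.04 in WT14. All strains but 83 were within 0.11 of WT14, also strain 73, in which the probes on either side of the stretch were gained.

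The probes at 478130, 479367 and 481266 were bright and had ratios above 0 throughout. At 479367 the log2 ratio was 0.71 in strain 1, 0.57 in 73, 0.60 in 76, 0.18 in 81, 0.63 in 83, 0.70 in 84, 0.48 in 97, 0.43 in 101, 0.49 in 106, 0.33 in 107, 0.23 in 113, 0.33 in 117 and 0.43 in 119, against 0.67 in WT14. Strains 1 and 84 were above WT14 and the other 11 below it. The median over the 3 probes was 0.18 to 0.70 in the TAQed strains and 0.56 in WT14, with 4 strains above WT14. In the reference this part of the block holds the Ty1 open reading frames, and Ty1 elements are retrotransposons with copies on many chromosomes, so a probe in such sequence reads all of them together. Whether these probes match Ty1 sequence was not tested.

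At the right edge the probes at 489761 and 489804 behaved like the rDNA. At 489804 the log2 ratio was 1.21 in strain 1, 1.20 in 73, 1.59 in 76, 0.34 in 81, 1.34 in 83, 0.88 in 84, 1.05 in 97, 0.59 in 101, 1.51 in 106, 1.09 in 107, 1.26 in 113, 1.30 in 117 and 1.65 in 119, against 0.91 in WT14. Strain 119 was the highest and strain 81 the lowest, as at 489761. The Pearson r with the median of the bright rDNA probes over the 14 arrays was 0.96 at 489761 and 0.97 at 489804, and 0.73 at the fainter probe at 489451. At the other 5 probes with signal it was -0.08 to 0.24. These are descriptions, since the points share array, scaling and brightness.

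**Figure D3:**
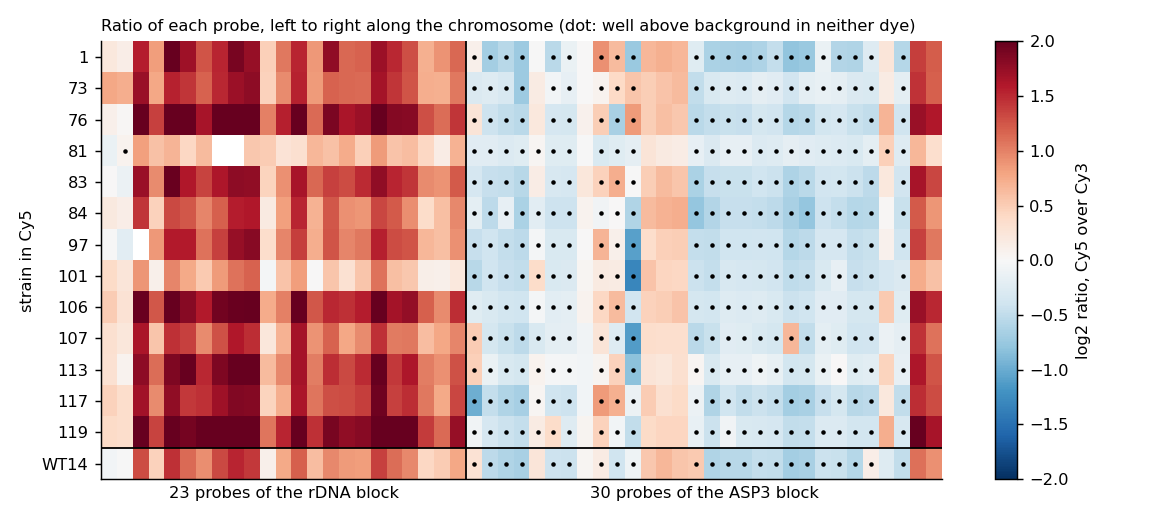
Log2 ratio (color, Cy5 over Cy3, limited to between -2 and 2) of the 53 probes of the stretch, left to right along the chromosome, with 1 row per array, the 13 TAQed strains above WT14. Dots mark values well above background in neither dye and white cells are spots left out as outliers; the red rDNA block and the 2 red probes at the right edge contrast with the dotted ASP3 block.

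The median over the whole ASP3 block is set mainly by its unlit probes, so it is no measure of ASP3 copies, and with 1 WT14 array its test cannot reach p = 0.05. The median log2 ratio of all 30 probes was -0.30 ± 0.11 in the TAQed strains (SD, n = 13) and -0.42 in WT14, a difference of 0.12 with 12 of 13 strains above WT14 (exact permutation test, two-sided p = 0.286, the smallest possible being 0.071). Relative to the flanks it was -0.58 ± 0.20 and -0.37, a difference of -0.21 (exact permutation p = 0.429). On slide 1, which holds WT14 and 5 of the strains, the differences were 0.12 and -0.21. The sign of the first difference turned to -0.12 with only probes well above background on every array and to -0.01 with the deposited log ratios.

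Each probe was also tested by limma for a shift of the 13 TAQed arrays against the WT14 array. None did after adjustment, 0 of 58706 nuclear probes or 0.0% at an adjusted p of 0.05. Before adjustment 493 of them, or 0.84%, had a p under 0.05. Of the 50 probes of the stretch that could be tested, 0 passed, and before adjustment 2 had a p under 0.05. These are the probes at 481877 and 488714, both never well above background. The median SE of the difference over the tested probes of the stretch was 0.30 on the log2 scale, with 1 array in the WT14 arm. The fit looks for a shift shared by the 13 strains, so it says nothing of a change in 1 or a few of them.

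The rDNA block was the brightest part of the stretch. Of its 23 probes, 21 had a median Cy3 signal over 3000 units, while the 2 leftmost, at 451118 and 451373, had 565 and 275 units and ratios like those of the flanks. The block median of the log2 ratio was 1.26 in strain 1, 1.19 in 73, 1.72 in 76, 0.56 in 81, 1.37 in 83, 0.96 in 84, 1.07 in 97, 0.55 in 101, 1.58 in 106, 0.97 in 107, 1.48 in 113, 1.36 in 117 and 1.90 in 119, against 0.93 for WT14 against itself. All strains but 81 and 101 were above WT14. Between 16 and 23 of the 23 probes had a log2 ratio above 0.3 in the TAQed strains, against 7.34% of all probe values on these arrays, and 20 did in WT14, against 2.72%.

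Thus WT14 against itself had rDNA ratios well above 0. Bright probes elsewhere were above 0 as well, though not always to the same extent. On the WT14 array the median log2 ratio outside the stretch was -0.06 at 21893 probes with a Cy3 signal of 500 to 1000 units, 0.20 at 3203 probes with 2000 to 3000 units, 0.53 at 591 probes with 3000 to 6000 units and 1.04 at 22 probes with 6000 to 12000 units. The rDNA block had medians of 0.97 at 9 probes with 3000 to 6000 units and 0.94 at 12 probes with 6000 to 12000 units on that array, so it was above the other probes in the first range and close to them in the second. On the TAQed arrays the same sets had medians of 0.50 to 1.90 in the rDNA and 0.15 to 0.53 elsewhere in the first range, and of 0.54 to 2.02 and 0.28 to 1.16 in the second. What part of the rDNA ratio goes with brightness was not tested. Among the 21 bright rDNA probes the ratio on the WT14 array spread from 0.10 to 1.52, with the same probes high in the strains. The Pearson r of each TAQed array with the WT14 array over these probes was 0.93 to 0.98 without strain 81 and 0.37 in strain 81, given as a description, as the probes read the same repeats.

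The difference between the TAQed strains and WT14 in the rDNA was within the spread of the strains. The block median was 1.23 ± 0.41 in the TAQed strains (SD, n = 13) and 0.93 in WT14, a difference of 0.30 with 11 of 13 strains above WT14 (exact permutation test, two-sided p = 0.429). Relative to the flanks it was 0.95 ± 0.43 and 0.98, a difference of -0.03 with 7 of 13 strains above WT14 (exact permutation p = 0.929). Within slide 1 the differences were 0.29 and -0.04. The last difference had no stable sign, being 0.11 after loess normalization, 0.02 without strain 81 and 0.02 without strain 73.

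The dyes taken apart show how far the rDNA level of a single DNA moved between arrays. In Cy5, which held the strains, the rDNA block exceeded the flanks by 3.78 to 4.62 on the log2 scale of the signal in the TAQed strains, with a mean of 4.14 ± 0.27 (SD, n = 13), and by 4.05 in WT14. In Cy3, which held WT14 DNA on every array, it exceeded them by 2.49 to 3.65, with a mean of 3.04 ± 0.37 (SD, n = 14). Without strain 81 the SDs were 0.28 in Cy5 and 0.34 in Cy3. Relative to the array median in place of the flanks, they were 0.31 in Cy5 and 0.35 in Cy3, and 0.319 in Cy5 and 0.315 in Cy3 without strain 81. The spread among measurements of the same DNA was thus close to or above that among the strains. Each Cy3 level was, however, read in competition with a different DNA in Cy5. The SDs also do not use the pairing of the dyes within an array. They therefore do not show whether the strains differ in rDNA level.

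Strain by strain and relative to the flanks, the Cy3 level differed from that of the WT14 array by more than the Cy5 level did in 8 of 13 strains. The largest Cy5 shifts from WT14 were 0.57 in strain 119, 0.44 in 113 and 0.32 in 76, and the lowest was -0.28 in 117. None exceeded 0.74, which is 2 SDs of the Cy3 level. This depended on the flanks, which were themselves raised in the strains. Relative to the array median, Cy5 was 0.95 above WT14 in strain 119 and 0.73 in 113, both past 2 SDs of Cy3 on that scale (0.71). Cy3, with WT14 DNA, was past this limit as well on the array of strain 81, at 0.72. A shift is a difference between 2 single arrays and varies more than a single level, so these limits do not set a strain apart. Without strain 81 the limit was 0.63, and strains 73 and 106, at 0.70 and 0.65, were past it too. On that scale the Cy3 shift was the larger in 6 of 13 strains. Relative to the flanks again, in strain 76 Cy5 was 0.32 above the WT14 array and Cy3, with WT14 DNA, was 0.38 below it. In strain 101, which had the lowest ratio, Cy5 was -0.18 and Cy3 0.62 from the WT14 array. In strain 119, Cy5 was 0.57 and Cy3 0.22 above it.

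**Figure D4:**
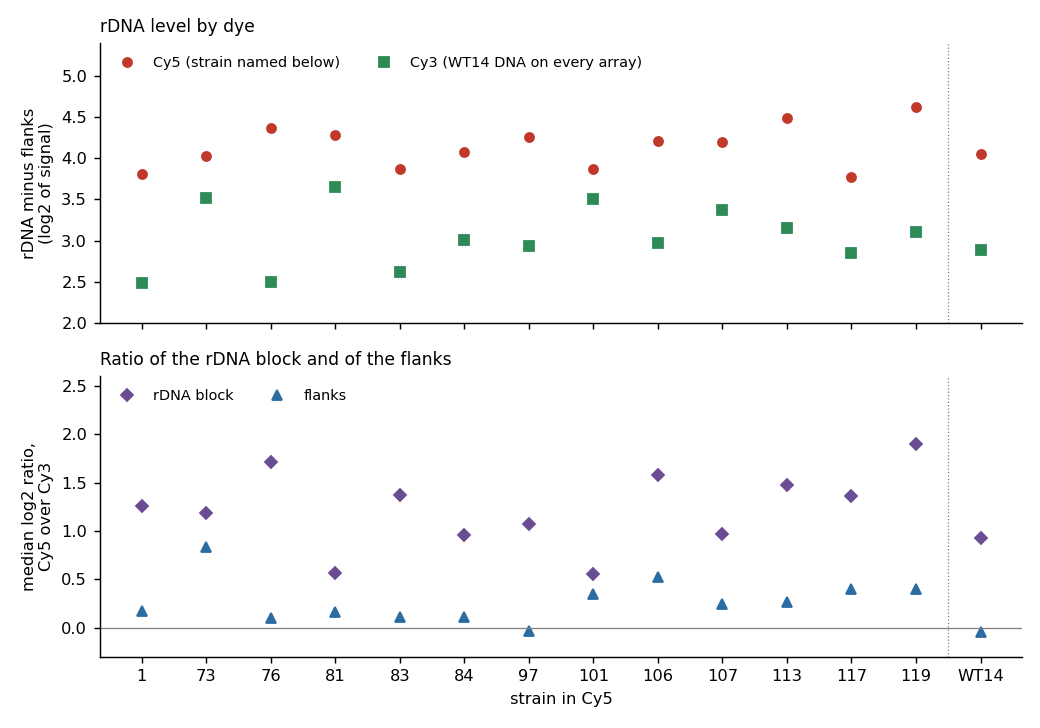
Top, level of the rDNA block minus that of the flanks (log2 of signal) per array in Cy5 (circles, the strain named below) and in Cy3 (squares, WT14 DNA on every array). Bottom, median log2 ratio of the rDNA block (diamonds) and of the flanks (triangles) for the 13 TAQed strains and WT14; Cy3 ranges over 2.49 to 3.65 although the DNA is the same, and WT14 against itself has an rDNA ratio of 0.93.

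Loess normalization, which fits the ratio to brightness within each array, lowered all rDNA values. The block median then became 0.09 in WT14, 1.34 in strain 119, 0.83 in 76, 0.79 in 117 and -0.07 in 101, with the other 9 strains at 0.25 to 0.72. The rDNA probes are among the brightest of the array and were part of that fit, and how far they set it was not tested.

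The flanks of the stretch, by the median over both sides, were higher in all TAQed strains than in WT14. Their median log2 ratio was 0.18 in strain 1, 0.84 in 73, 0.11 in 76, 0.16 in 81, 0.12 in 83, 0.11 in 84, -0.03 in 97, 0.35 in 101, 0.52 in 106, 0.24 in 107, 0.27 in 113, 0.40 in 117 and 0.40 in 119, against -0.05 in WT14. Strain 73 stood highest, 0.89 above WT14, and strain 97 was 0.02 above it. On the left flank alone all 13 strains were above WT14, and on the right flank alone 12 of 13 were. The exception on the right was strain 97, at -0.047 against -0.045 in WT14. The left and the right flank of a strain differed by little, as with 0.81 and 0.88 in strain 73 or 0.38 and 0.42 in strain 119. Over the TAQed strains the mean difference from WT14 was 0.33, with an SD of 0.23. How often other parts of the genome are higher in all strains was not tested. The count also rests on 1 WT14 array, so it does not set the strains apart from WT14.

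No clear shared movement of the rDNA and the flanks was seen over the strains, though with 1 array per strain one could have been missed. In strain 73 the flanks were 0.89 above WT14 and the rDNA ratio was 0.26 above it. In strain 106 these values were 0.57 and 0.65, in strain 117 they were 0.45 and 0.43, and in strain 101 they were 0.40 and -0.38. Over the 13 TAQed strains the flanks and the rDNA had a Pearson r of 0.16 (permutation p = 0.611, adjusted 0.784) and a Spearman rho of 0.19 (permutation p = 0.542, adjusted 0.809), and r was 0.16 without strains 73 and 106 and 0.44 over the 8 strains of slide 2. The flanks and the ASP3 block gave 0.47 (permutation p = 0.104, adjusted 0.311) and 0.47 (p = 0.109, adjusted 0.326 by permutation), and r was 0.30 without strains 73 and 106 and 0.32 on slide 2. The rDNA and the ASP3 block gave 0.09 (permutation p = 0.784, adjusted 0.784) and 0.08 (p = 0.809, adjusted 0.809 by permutation), and r was 0.23 without strains 81 and 101 and 0.40 on slide 2. Slide 1 held 5 strains, too few for such a value. None of these 3 relations passed the adjustment, and the 2 with the ASP3 block rest on its unlit probes and so say nothing of its copy number.

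The level of the flanks was part of a slope along chromosome XII. In strain 119 the median log2 ratio was 0.38 within 10 kb on the left of the stretch, 0.24 at 80 to 160 kb and -0.09 beyond 320 kb, and on the right it was 0.41, 0.27 and 0.02. In strain 106 the values nearest to the stretch and farthest from it were 0.52 and 0.13 on the left and 0.53 and 0.24 on the right, and in strain 73 they were 0.79 and 0.57 on the left and 0.86 and 0.65 on the right. The 12 strains other than 97 were higher next to the stretch than far from it on both sides, by 0.14 to 0.87 on the left and 0.06 to 0.39 on the right. Strain 97 differed by -0.01 and -0.05 and WT14 by -0.08 and -0.04. The highest value on the left, in strain 76, goes with a ratio of -0.80 beyond 320 kb. Between the middle and the ends of chromosome XII the ratio differed by -0.02 to 0.45 in the TAQed strains and by -0.03 in WT14. The median of this difference over the other 15 chromosomes was -0.04 to 0.27 in the strains, above 0 in 11 of 13, and -0.02 in WT14. It was lower than on chromosome XII in 12 of 13 strains, as with 0.25 and 0.45 in strain 119, 0.06 and 0.24 in strain 107 and -0.04 and 0.18 in strain 113.

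**Figure D5:**
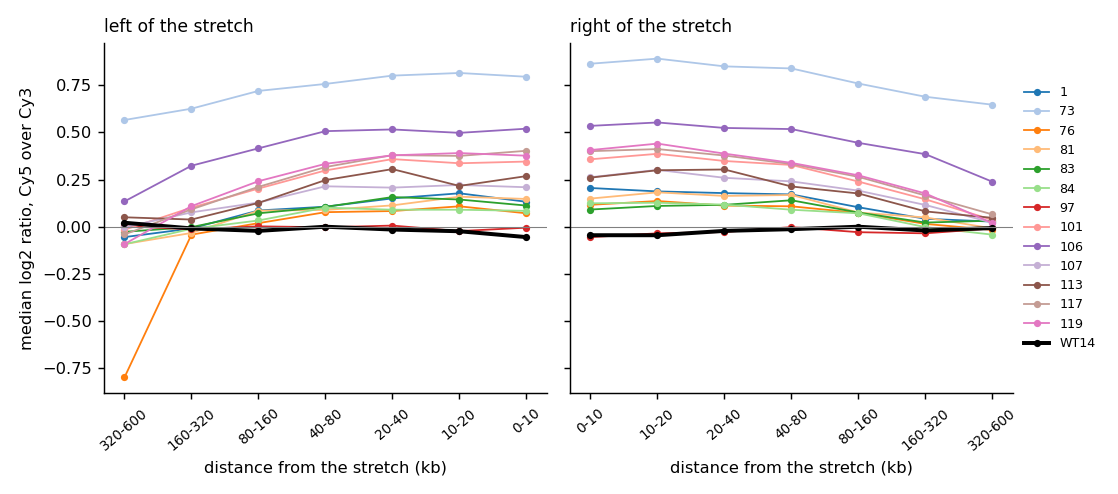
Median log2 ratio (Cy5 over Cy3) of the probes in bins of distance from the stretch in kb, left and right of it, for the 13 TAQed strains (colored) and WT14 (black, thick); the outermost bin ends where the chromosome ends. All strains but 97 lie higher next to the stretch than in the outermost bin, and WT14 stays between -0.06 and 0.02.

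The 2-kb windows elsewhere in the genome whose ratio was most like that of the ASP3 block over the 14 arrays were sought by Pearson r with the mean of the block. The 2 windows on chromosome IV that span the unlit probes named above had r of 0.721 and 0.615, and 9 of 12 and 8 of 9 of their probes were never well above background. The other 3 of the first 5 lay on chromosome XII, at 660000, 416000 and 388000, with r of 0.63, 0.61 and 0.60 and with all probes lit. No gene was assigned to them, as no annotation of sacCer2 was used here.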

How the data were processed

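The authors deposited Feature Extraction 11.0.1.1 spot tables in build sacCer2, with background-subtracted, linearly dye-normalized intensity values per channel, and a series matrix of log10 ratios. All 14 matrix columns were mapped, and 0 columns were left unassigned. Per spot, the log2 ratio of the deposited processed intensity was computed without control spots and outlier flags, averaged per probe and centered on each array's nuclear median. Block medians were tested by exact permutation over the 14 choices of the control array, and single probes by limma 3.58.1 (Benjamini-Hochberg, tested on simulated data). Relations used 100000 permutations and adjustment over 3. Probes were named by position. The rule for named genes took the 4 ASP3 genes, the genes of the stretch, its neighbors and 5 windows most alike; genes at the outer flank edges and in windows were not named, since the annotation is R64. Normexp used an offset of 50 on median signals, because the planned mean signals were not used here. The number of arrays limits the precision. Members, lists and tests were chosen with earlier results of these data known.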

Additional observations from a re-analysis of the deposited data

How the results depend on the processing

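The alternatives were normexp and loess, centering without chromosome XII, the deposited log ratios, probes well above background everywhere, slide 1 alone, leaving out strain 81, 73 or 106, means for medians, other block and flank limits and other folds. The difference of the ASP3 block (0.12) became -0.011 with the deposited log ratios, which leave out the custom probes, and -0.12 with probes well above background on every array. That of the rDNA relative to the flanks (-0.03) became 0.11 after loess, and ran from -0.038 to 0.021 without strain 81, 73 or 106; its exact permutation p was 0.714 to 1.0. The cause was not tested. The ASP3 block relative to the flanks stayed between -0.46 and -0.17 in 15 alternatives, and the rDNA block between 0.27 and 0.43 in 11, with no exact permutation p below 0.143. The count of ASP3 values below the fold (174) was 221 at a fold of 0.2 and 54 at 0.5, 54 after subtracting the WT14 array, and 1 among values well above background in a dye; the last setting, those with the 22 probes at background or without the 2 leftmost rDNA probes, and the array median as the base of the rDNA level were chosen after the data were seen. In limma nothing passed in all 10 alternatives, of which the one with windows of 2 kb tested windows and not probes. No paired analysis was possible because WT14 has a single array and its number pairs it with no strain. On the array of strain 81, 157 of 218 flank probes were well above background in both dyes, so probes without signal there say little.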
